A study of Homo sapiens with 3 samples.

Results

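H3K4me3 peaks that lay at the ends of long noncoding RNA (lncRNA) genes, and at no end of a protein-coding gene, were described in ALL-SIL, an established line grown from a T-cell acute lymphoblastic leukaemia (T-ALL). A peak was a member if it was shorter than 4000 bp and came within 1 kb of the start or end of a lncRNA gene span, but not of a protein-coding one, in the RefSeq annotation of GRCh38. There were 625 such peaks among the 11100 H3K4me3 peaks of the series, of which 11084 lay on the main chromosomes and 10784 of these were under 4 kb. Chromatin of formaldehyde-fixed, sonicated cells from RPMI medium with serum gave 1 library of H3K4me3 (antibody ab8580), 1 of H3K4me1 (antibody ab8895) and 1 of input DNA, and the labels name no drug or genetic treatment. ALL-SIL is a leukaemia line with a rearranged TLX1 locus and a NUP214-ABL1 fusion, and the series holds no other line and no normal T cell. The filtered depth was 30823016 tags for H3K4me3, 34813455 for H3K4me1 and 18859011 for the input. With 1 library per mark there was no replicate error and no test. Intervals in the text are exact 95% intervals (Clopper-Pearson for shares, order-statistic for medians), which treat peaks as independent and cover counting error only.

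lncRNAs are transcripts without a long open reading frame. Some act themselves in the nucleus or cytoplasm, some are carriers from which snoRNAs or microRNAs are cut, and for others the act of transcription or the DNA element itself is thought to matter. Their promoters, when active, carry trimethylation of histone H3 at lysine 4 (H3K4me3), as promoters of coding genes do. Monomethylation (H3K4me1) is known to lie over enhancers and on the shoulders of active promoters, and many enhancers are themselves transcribed into noncoding RNA.

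Of the 336 lncRNA genes with an annotated start inside these peaks, 76.2% had a CpG ratio (observed over expected) of at least 0.6 around it. The same was true of 25.7% of all 11462 listed lncRNA starts and 49.0% of all 27303 listed lncRNA and protein-coding starts. Of the 336, 105 were in a peak within 1 kb of a protein-coding start (83.8%) and 231 were not (72.7%). The sequences below are RefSeq promoters of GRCh38.p14, 250 bases before to 50 after a lncRNA start, 5′ to 3′ on the strand of the gene, and were chosen after their values were seen. Capitals mark any of 8 motifs searched on both strands. These were GGGCGG of SP/KLF factors, the CCAAT box of NFY, the TATA box as TATAAA, the ETS core as CCGGAAG, the RUNX motif TGTGGT, the GATA motif AGATAA, the E-box CACGTG and the NRF1 palindrome. SNHG12, a host of snoRNAs, is shown as a CpG-rich start under a tall peak, and MIR155HG, the host of miR-155, as a start with a TATA box. LINC01550 and LINC01215 are shown as starts of lower CpG content, and SNHG11 as one whose H3K4me3 peak lay wholly under H3K4me1.
SNHG12, chr1:28581824-28582123, minus strand: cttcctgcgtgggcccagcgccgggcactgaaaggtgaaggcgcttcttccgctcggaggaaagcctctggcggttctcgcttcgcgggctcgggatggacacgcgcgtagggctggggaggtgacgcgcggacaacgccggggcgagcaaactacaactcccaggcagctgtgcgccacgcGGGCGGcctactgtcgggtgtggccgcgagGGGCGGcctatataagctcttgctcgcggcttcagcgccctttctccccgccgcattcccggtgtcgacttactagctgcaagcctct
MIR155HG, chr21:25561895-25562194, plus strand: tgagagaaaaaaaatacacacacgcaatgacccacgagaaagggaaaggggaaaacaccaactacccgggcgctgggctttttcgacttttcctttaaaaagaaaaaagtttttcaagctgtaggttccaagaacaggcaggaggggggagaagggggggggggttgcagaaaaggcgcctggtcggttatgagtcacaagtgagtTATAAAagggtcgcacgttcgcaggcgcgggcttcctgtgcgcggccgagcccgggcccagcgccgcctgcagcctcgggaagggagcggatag
LINC01550, chr14:97978075-97978374, minus strand: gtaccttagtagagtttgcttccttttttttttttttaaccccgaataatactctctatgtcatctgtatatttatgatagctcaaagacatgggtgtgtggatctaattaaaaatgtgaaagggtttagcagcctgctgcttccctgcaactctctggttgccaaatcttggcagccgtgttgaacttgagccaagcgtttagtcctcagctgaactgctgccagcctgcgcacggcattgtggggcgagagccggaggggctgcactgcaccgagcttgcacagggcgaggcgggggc
LINC01215, chr3:108125571-108125870, plus strand: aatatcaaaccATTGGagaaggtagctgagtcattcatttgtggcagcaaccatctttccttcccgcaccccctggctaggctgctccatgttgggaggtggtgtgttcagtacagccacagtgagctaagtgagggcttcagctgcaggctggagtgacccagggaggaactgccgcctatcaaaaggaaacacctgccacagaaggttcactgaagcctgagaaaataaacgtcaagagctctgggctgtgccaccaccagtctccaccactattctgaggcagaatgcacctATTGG
SNHG11, chr20:38446404-38446703, plus strand: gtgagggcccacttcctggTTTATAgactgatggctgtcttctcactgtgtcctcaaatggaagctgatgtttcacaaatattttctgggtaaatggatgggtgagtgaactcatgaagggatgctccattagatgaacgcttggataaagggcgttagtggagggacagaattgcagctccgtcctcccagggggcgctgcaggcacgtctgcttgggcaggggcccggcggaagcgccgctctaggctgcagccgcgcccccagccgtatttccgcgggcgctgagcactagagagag

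In these windows SNHG12 held 35 CpG and an observed over expected CpG ratio of 1.03, with 2 matches to GGGCGG. MIR155HG held 20 CpG at a ratio of 0.89 and 1 match to TATAAA. LINC01550 held 10 CpG at a ratio of 0.54 with none of the 8 motifs, and LINC01215 held 3 at a ratio of 0.14 with 2 matches to CCAAT. SNHG11 held 15 CpG at a ratio of 0.63 and 1 match to TATAAA, on the other strand. The first 4 windows lay wholly inside their H3K4me3 peaks, while that of SNHG11 lay only partly inside. A match is a run of letters and says nothing of binding.

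Over all lncRNA genes with a listed start inside a member peak and no protein-coding start within 1 kb of the peak, the median CpG ratio was 0.75 (interval 0.72 to 0.79, 231 genes) and the median G+C content 62.0%. lncRNA starts with no H3K4me3 peak within 1 kb had a median ratio of 0.24 (9522 genes) and 47.0% G+C, and protein-coding starts inside the H3K4me3 peaks under 4 kb at protein-coding ends only had 0.87 (5635 genes) and 65.3% G+C. A ratio of at least 0.6 was found at 72.7% of the 231 starts, at 13.9% of the starts without H3K4me3 and at 91.9% of the protein-coding starts. The lncRNA starts under these peaks thus stood between the other groups in CpG content, nearer to the marked protein-coding starts. Where the midpoint of the peak lay inside H3K4me1 the median ratio was 0.67 (0.55 to 0.81, 41 genes), against 0.77 (0.73 to 0.81, 190 genes) where it lay outside, and these intervals overlap.

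**Figure D1:**
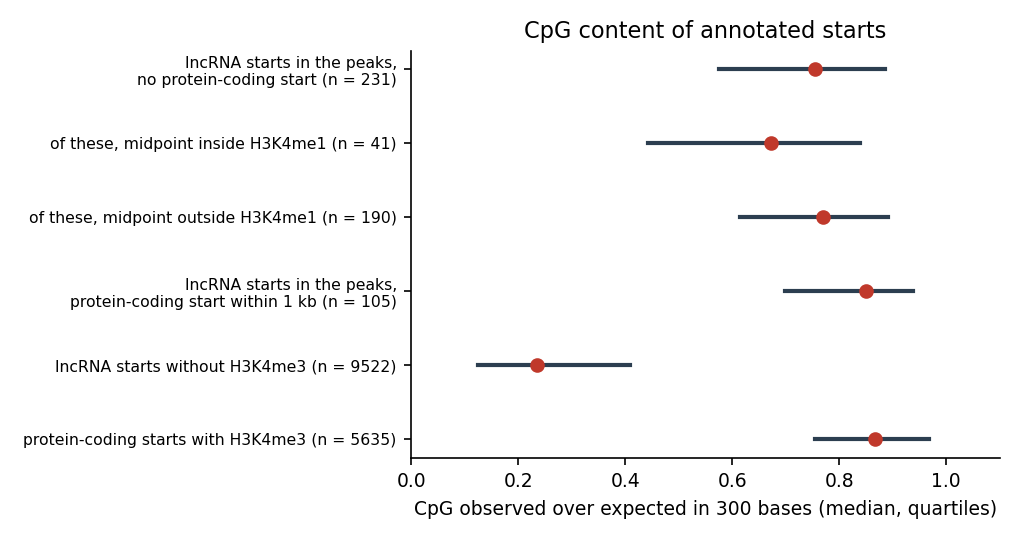
CpG observed over expected ratio in 300 bases around annotated starts (x axis), with the median as a point and the quartiles as a line for each group of genes (y axis). Starts inside the lncRNA peaks have medians from 0.67 to 0.85, far from the 0.24 of lncRNA starts without H3K4me3.

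Over the 231 starts, the lncRNA starts without H3K4me3 and the marked protein-coding starts, the SP/KLF, ETS and NRF1 motifs were ordered as the CpG ratio was, and the TATA box, GATA and RUNX motifs in reverse. For NRF1 the order rested on 3 of the 231 starts. The SP/KLF motif GGGCGG was in 57.6% of the 231 starts, in 16.5% of lncRNA starts without H3K4me3, in 74.5% of the protein-coding starts and in 44.6% of all 27303 listed starts. The ETS motif CCGGAAG was in 19.9%, 3.11%, 26.2% and 10.7% of them. TATAAA was in 8.66%, 17.4%, 4.35% and 12%, and AGATAA in 5.63%, 16.5%, 3.76% and 10.5%. CCAAT was in 32.0%, 35.5%, 38.8% and 35.7%, and CACGTG in 11.3%, 4.72%, 10.9% and 7.44%. TGTGGT was in 10.8%, 17.5%, 8.55% and 13.1%, and the NRF1 motif in 1.30%, 0.34%, 3.03% and 1.36%. G+C content differed between the groups, and its part in these shares was not tested.

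The label of the peaks held only in part when annotated starts were compared with them. Of the 625 peaks, 144 (23%, interval 19.8 to 26.5) lay within 1 kb of a listed start of a protein-coding gene that was internal to the gene span, so that the rule, which reads only the outer ends of genes, did not see it. Among these were starts of RUNX3, which encodes a transcription factor of T cells (chosen after its values were seen), ARHGEF18, ZNF420, SPTBN1, PIK3R3 and KANSL1. Another 117 (18.7%) lay inside a protein-coding gene with no listed start of one nearby, and 364 (58.2%, 54.3 to 62.1) lay outside protein-coding genes. A listed start of a lncRNA gene was within 1 kb of 439 peaks (70.2%). It was the sole kind of start at 310 peaks (49.6%, 45.6 to 53.6), while 129 had starts of both kinds, 15 a protein-coding start alone, and 171 (27.4%) neither.

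Most of the lncRNA ends were 5′ ends. A strand was given for 11462 of the 18303 lncRNA genes, and 143 peaks had no usable strand. Of the other 482, 445 (92.3%, 89.6 to 94.5) overlapped the window at a 5′ end and 37 lay at 3′ ends alone. Without the peaks near a protein-coding start the share was 90.3% (316 of 350). Peaks at 3′ ends alone were short, with a median of 592 bp (463 to 895), against 1243 bp (1157 to 1335) at 5′ ends. A single lncRNA gene was touched by 554 peaks, a pair of genes by 68 and 3 genes by 3 peaks.

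The 625 peaks had a median length of 1166 bp (1093 to 1249, quartiles 688 and 1786), between the 1424 bp (1405 to 1442) of the 6313 peaks at protein-coding ends only and the 697.5 bp (650 to 768) of the 620 peaks between genes. The median was 965 bp (911 to 1008) for the 1408 peaks in gene bodies. At ends of both kinds of gene it was 1654.5 bp (1624 to 1689, 1818 peaks). All classes carried the same limit of 4 kb. The order of medians within the class followed the annotation: 1649 bp (1506 to 1826) at an internal protein-coding start, 1223 bp (997 to 1493) inside a gene away from such a start, and 1009 bp (927 to 1090) outside protein-coding genes. The intervals of the groups away from such a start overlap. Pileup, the mean number of overlapping fragments over a peak as the authors' caller gave it, did not follow the order of length, with medians of 13.8, 13.0 and 13.4. Over all members it was 13.39 (12.7 to 14.0), against 13.36 (13.2 to 13.5) at protein-coding ends only. The fold over local background had a median of 4.61 (4.42 to 4.80) against 4.49 (4.43 to 4.56). A −log10 q of at least 5 was reached by 471 members (75.4%), where 77.2% of all H3K4me3 peaks under 4 kb did so. Members were thus shorter at the median than protein-coding peaks, with a median pileup whose interval overlaps theirs. Pileup ran from 3.12 to 33.8 in members and from 3.25 to 48.0 at protein-coding ends only.

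**Figure D2:**
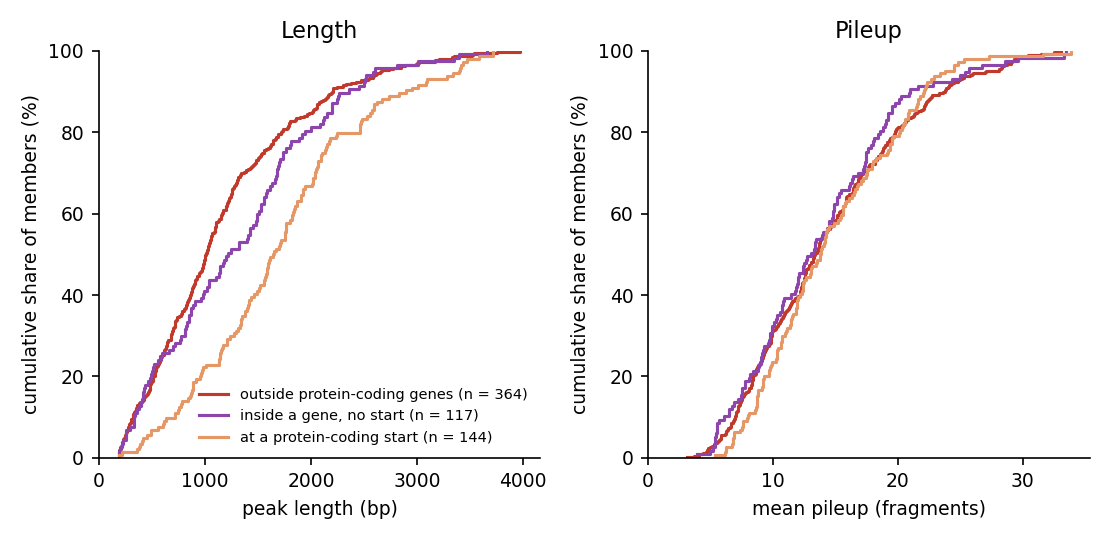
Cumulative share of members (y axis) by peak length in bp (left) and by mean pileup in fragments (right), for the 364 members outside protein-coding genes, the 117 inside a gene and the 144 at an internal protein-coding start. Median lengths are 1009, 1223 and 1649 bp. Only the interval of the members at an internal protein-coding start lies apart from the others, while the pileup curves lie close together.

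H3K4me1 touched 320 of the 625 peaks (51.2%, 47.2 to 55.2), where 46.3% of all H3K4me3 peaks under 4 kb were touched and 43.6% (42.4 to 44.8) of those at protein-coding ends only. The members' share was not particular to them, with 53.8% (51.1 to 56.4) touched in gene bodies and 50.3% (46.3 to 54.3) between genes. H3K4me1 lay within 2 kb on both sides of 380 members (60.8%, 56.8 to 64.6), on a single side of 152 (24.3%), and 93 had it on no side (14.9%, 12.2 to 17.9). Over all H3K4me3 peaks under 4 kb, 58.8% had both flanks and 11.7% had neither. At protein-coding ends only, 56.8% (55.6 to 58.1) had both, 31.9% had 1 and 11.2% (10.4 to 12) had neither. In gene bodies 68.3% had both and 10.0% neither, and between genes 53.7% had both and 23.5% neither. The members with no flank were short, with a median of 719 bp, against 1166.5 bp with 1 flank and 1314 bp with both. Of the 93, 70 lay outside protein-coding genes. These shares depend on weak H3K4me1 peaks: with H3K4me1 limited to −log10 q values from 3 upward, 20.2% of members were touched and 15.7% had both flanks, against 17.6% and 16.0% at protein-coding ends only, so the order for both flanks turned. With a gap of 1 kb allowed, 83.2% of members and 87.2% of peaks at protein-coding ends only counted as touched, which turned that order too.

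The centre of the peak showed the larger separation. H3K4me1 lay over the midpoint of 133 members (21.3%, 18.1 to 24.7), where 11.8% of all H3K4me3 peaks under 4 kb had it there. The share was 7.13% (6.51 to 7.79) at protein-coding ends only, 5.45% (4.45 to 6.59) at ends of both kinds, 28.2% (25.9 to 30.6) in gene bodies and 31.8% (28.1 to 35.6) between genes. The members split by the presence of an internal protein-coding start: 10 of 144 with one (6.94%, 3.38 to 12.4) had H3K4me1 over the midpoint, against 123 of 481 without (25.6%, 21.7 to 29.7). Outside protein-coding genes it was 25.3% (20.9 to 30.1), and at 3′ ends alone 16 of 37 (43.2%, 27.1 to 60.5). Of the 320 members that met H3K4me1, 114 (35.6%) lay wholly under it. These were 18.2% of all members, where 10.0% of all H3K4me3 peaks under 4 kb lay wholly under H3K4me1. The share was 5.58% at protein-coding ends only, 4.02% at ends of both kinds, 25.9% in gene bodies and 28.9% between genes. The differences between these subsets and classes were not tested. Median length was 1649 bp for members with an internal protein-coding start, 1044 bp for those without and 592 bp at 3′ ends alone. The part of length in the shares of these subsets was not tested. With the stricter H3K4me1 list the midpoint share was 8.16% in members and 2.87% at protein-coding ends only.

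**Figure D3:**
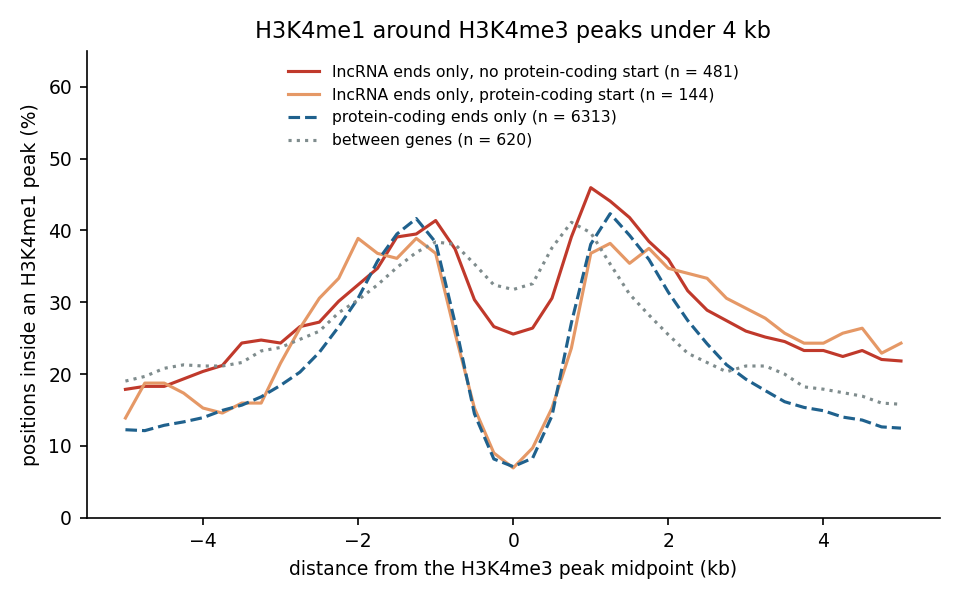
Share of positions inside an H3K4me1 peak (y axis, percent) by distance from the H3K4me3 peak midpoint in kb (x axis), for members with and without a protein-coding start, for peaks at protein-coding ends only and for peaks between genes. All curves rise on both sides of the centre, and the dip at the centre reaches 6.94% and 7.13% where a protein-coding start or end is near, but stays at 25.6% at the other members.

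At 1 kb from the midpoint, 40.3% of positions to the left and 43.8% to the right of members were inside H3K4me1. The values were 38.3% and 38.1% at protein-coding ends only, 38.4% and 39.7% between genes, and 50.1% and 50% in gene bodies. At 5 kb the values were 17.0% and 22.4% for members against 12.3% and 12.5% at protein-coding ends only. Gene bodies had 23.7% and 27.5% there, both above members. Peaks between genes had a higher share than members to the left and a lower share to the right. Direction of transcription could be given to 288 members at the 5′ end of lncRNA genes of 1 strand, with no protein-coding start. Upstream of them 72.9% (67.4 to 78.0) had H3K4me1 within 2 kb and downstream 69.4% (63.8 to 74.7), and these intervals overlap. Beyond the peak, a member had a median of 5 H3K4me1 peaks free of H3K4me3 within 50 kb (quartiles 3 and 8), as at protein-coding ends (5, quartiles 3 and 7). Such peaks were a median of 2 around members with no flank and 6 around those with both, and 36 members had none.

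The shortest peaks more often lay under H3K4me1 at lncRNA ends, at protein-coding ends and in gene bodies, so these classes were also set side by side within bins of length. Among members under 500 bp, 41.2% of midpoints (31.5 to 51.4, 102 peaks) were inside H3K4me1, against 34.8% (29.1 to 40.9, 264 peaks) at protein-coding ends only, and the intervals overlap. From 500 bp to under 1000 bp the values were 31.2% (24.1 to 39.1) and 15.0% (13.0 to 17.1), and from 1000 bp to under 1500 bp 13.1% (7.98 to 20.0) and 4.45% (3.59 to 5.44). From 1500 bp to under 2000 bp they were 13.7% (7.71 to 22) and 2.94% (2.12 to 3.95), and from 2000 bp to under 4000 bp 7.87% (3.84 to 14.0) and 3.26% (2.40 to 4.33), where the intervals again overlap. With the members' lengths as weights, protein-coding ends had 11.6% of midpoints inside H3K4me1 and gene bodies 24.1%, beside 21.3% of members. The share touched by H3K4me1 was 42.5% at protein-coding ends when weighted in the same way.

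**Figure D4:**
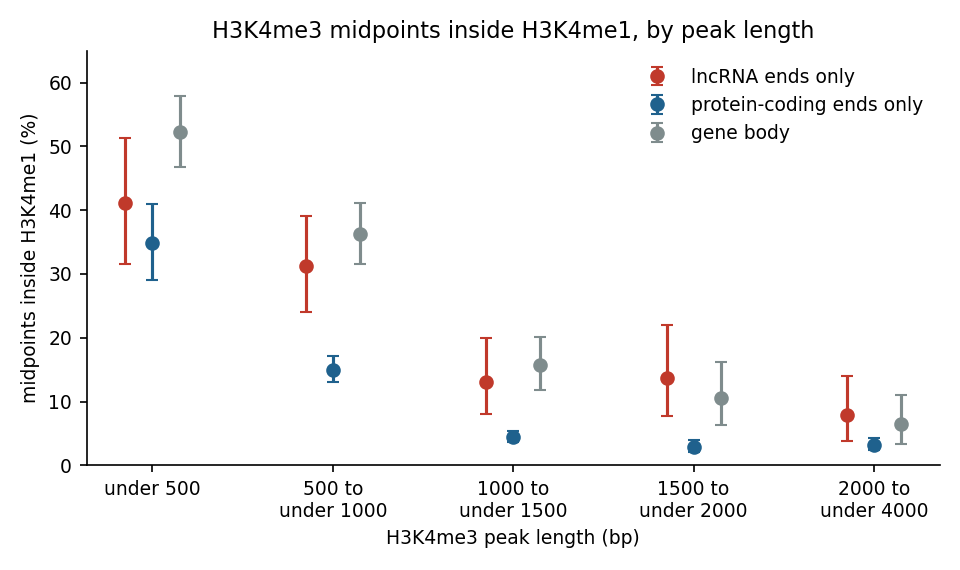
Share of H3K4me3 midpoints inside an H3K4me1 peak (y axis, percent, bars are exact 95% intervals) by peak length in bp (x axis), at lncRNA ends only, at protein-coding ends only and in gene bodies. The share is 41.2% in the shortest and 7.87% in the longest bin at lncRNA ends, and from 500 bp to under 2000 bp its intervals lie above those at protein-coding ends.

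Of the 18303 lncRNA genes, 2631 had any H3K4me3 peak within 1 kb of an end (14.4%) and 691 had a member peak (3.78%). Genes whose names mark them as divergent transcripts (ending in -DT) had H3K4me3 at 72.6% of 592, but a member peak at 16 of them (2.70%). Such genes are named for a protein-coding neighbour that starts beside them on the other strand. Antisense genes had H3K4me3 at 30.1% of 2047 and a member peak at 137 (6.69%, 5.65 to 7.86). Intergenic genes named LINC had H3K4me3 at 7.28% of 2309, and 124 of those 168 marked genes (73.8%) had a member peak. Host genes of small RNAs had H3K4me3 at 43.1% of 116 and a member peak at 28 (24.1%, 16.7 to 33.0). Of 12385 genes with no symbol beyond a LOC number, 326 (2.63%) had a member peak. They were 47.2% of the genes with a member peak, a smaller share than the 12385 LOC genes among all 18303 lncRNA genes. H3K4me1 lay within 1 kb of an end of 75.8% of genes with a member peak, against 23.2% of all lncRNA genes. Most of all lncRNA genes had no H3K4me3 at an end, and the share among the 2631 with H3K4me3 is not given here.

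Peaks at host genes were longer than most. The 28 at host genes had a median of 1793.5 bp (1451 to 2140) and 2 of them had H3K4me1 over the midpoint, while the 122 at LINC genes had 1043 bp (912 to 1205) and 36 midpoints inside (29.5%, 21.6 to 38.4). The 137 at antisense genes had 1223 bp and 23 midpoints inside (16.8%, 11.0 to 24.1). The part of length in these midpoint shares was not tested.

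Lists of lncRNA genes were chosen with earlier results of these data known, and their counts stand beside the background of 14.4% for any H3K4me3 and 3.78% for a member peak. snoRNA hosts had H3K4me3 at 25 of 28 genes and a member peak at 11. These genes keep snoRNAs in their introns, which guide the chemical modification of ribosomal and other RNAs. Under the start of SNHG12 the pileup was 30.5 over 2140 bp (fold 5.41) with no H3K4me1 in the peak, the highest of the list. SNHG21 had 21.9 over 1558 bp, EPB41L4A-AS1 17.2 over 1249 bp, SNHG16 17.0 over 2162 bp and SNHG32 16.9 over 3022 bp. SNHG11 had 15.8 over 823 bp, all of it under H3K4me1, the sole snoRNA host of this kind. SNHG30, SNHG17 and SNHG15 had 15.6, 14.0 and 9.67, and DANCR and SNHG29 8.37 and 6.78. The DANCR peak was 195 bp long. SNHG14, SNHG18 and SNHG22 had no H3K4me3 at an end.

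microRNA hosts had H3K4me3 at 12 of 24 genes and a member peak at 8. MIR23AHG, which carries miR-23a and its neighbours, had the highest pileup, 22.2 over 1786 bp, followed by MIR193BHG with 19.4 over 2133 bp. MIR17HG, host of an oncogenic microRNA cluster that is a target of MYC, had 15.5 over 2535 bp (fold 7.12). MIR181A2HG, host of a miR-181 pair known to tune T cell receptor signalling, had 13.9 over 2502 bp inside NR6A1, and MIR155HG 13.2 over 1739 bp. DLEU2, host of miR-15a and miR-16-1, had 12.3 over 3210 bp. MIR210HG, whose microRNA responds to low oxygen, had 8.30 over 1687 bp, and MIR4435-2HG the lowest value of the list, 3.71 over 1345 bp. None of these 8 had H3K4me1 over its midpoint, and 6 had it on both flanks.

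Of 22 T-lineage and T-ALL genes found, 12 had H3K4me3 and 5 a member peak, while 18 had H3K4me1 at an end. H3K4me1 lay at an end of 23.2% of all lncRNA genes and of 22 of the 28 snoRNA hosts. It did so at 12 of 24 microRNA hosts, 9 of 21 widely expressed genes and 4 of 28 markers of other tissues and tumours. LUNAR1, a Notch-regulated RNA of T-ALL known to enhance IGF1R expression, had a pileup of 18.6 over 2731 bp (chr15:99014808-99017538, fold 5.44) with H3K4me1 on both flanks and 10 H3K4me1 peaks free of H3K4me3 within 50 kb. LINC01550 had 26.0 over 2060 bp (fold 9.94), of which 41.8% lay under H3K4me1, and the nearest protein-coding end was 1094710 bp away. LINC02273 had 21.2 over 734 bp, wholly under H3K4me1, at 218976 bp from FBXW7. LINC00649 and LINC01215 had 13.4 and 12.4 over 1499 and 1798 bp. NALT1, TRG-AS1, GATA3-AS1, LEF1-AS1, SATB1-AS1, CD27-AS1 and CASC15 had H3K4me3 of another class, since the peak was longer or also met a protein-coding end. The other 10 had none at an end, among them IFNG-AS1, MIAT and LINC00861.

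Among 21 widely expressed lncRNA genes found, 18 had H3K4me3 and 6 a member peak. CYTOR had a pileup of 21.4 over 1167 bp, at an end shared with NCAL1. FTX and JPX, from the X inactivation centre, had 13.1 over 3539 bp and 10.3 over 949 bp, and NUTM2A-AS1 had 11.1 over 1854 bp. NORAD, which binds Pumilio proteins, had 9.89 over 2420 bp, and FIRRE, a nuclear RNA, had 5.89 over 3326 bp. H3K4me1 met none of these 6 peaks, but lay on both flanks of those of FIRRE, CYTOR and NUTM2A-AS1. Of 28 marker genes of other tissues and tumours found, 2 had H3K4me3 (UCA1 and WT1-AS) and 0 had a member peak, with HOTAIR, H19, MEG3 and FENDRR among those without.

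**Figure D5:**
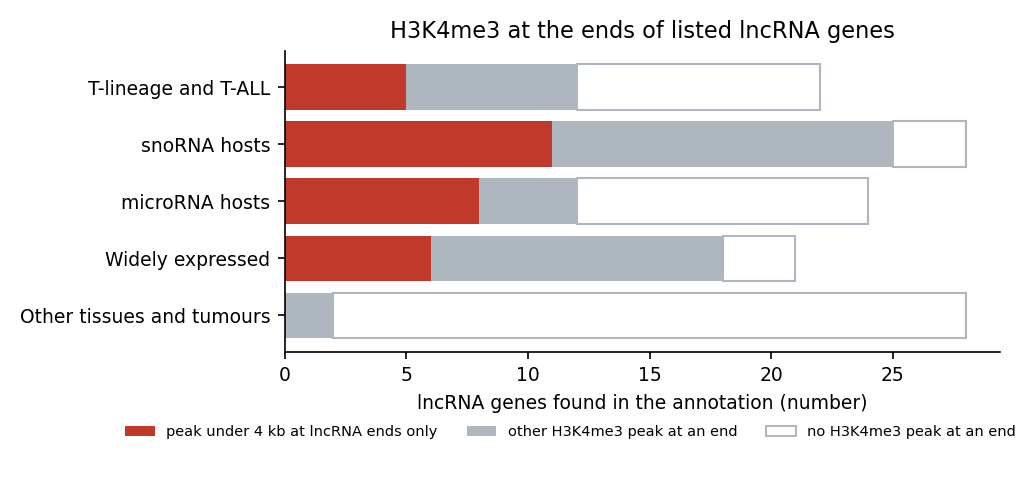
Number of lncRNA genes found in the annotation (x axis) in each of 5 lists (y axis), split into genes with a peak under 4 kb at lncRNA ends only, genes with another H3K4me3 peak at an end and genes with none. Among snoRNA hosts 25 of 28 genes carry H3K4me3, and among markers of other tissues 2 of 28.

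The tallest peaks were mostly at little known genes. ARHGEF18-AS1 had a pileup of 33.8 over 789 bp, at an internal start of ARHGEF18. LOC124904626, inside the insulin receptor gene INSR, had 33.5 over 295 bp and the highest fold, 15.0, with no H3K4me1 within 2 kb. PCOLCE-AS1 had 33.4 over 812 bp (chr7:100604126-100604937), all of it under H3K4me1. ZNF433-AS1 had 33.0 over 1668 bp, LOC107986631 32.5 over 356 bp with a fold of 13.7, LOC105372390 31.7 over 1643 bp at an internal start of ZNF420, and SPATA41, with LOC105371021, 30.4 over 486 bp. LOC124901033 in ERAP1 and LOC112268065 had 29.6 and 29.5 over 344 and 530 bp, both wholly under H3K4me1. LOC107986906 and LINC03018 had 32.5 and 31.5, but folds of only 5.78 and 5.49. These last genes are on chromosome 8, where the 24 members had a median local background (pileup divided by fold) of 3.35 against 2.74 elsewhere, and its part in those pileups was not tested.

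By fold the list went on with LOC124904625 (13.1), LOC105373760 (13.1, wholly under H3K4me1), LOC105372990 (12.9), LOC112268065 (12.2), LOC105374841 at an internal start of CAPG (11.8) and LOC124903038 (11.7). A fold of at least 10 was reached by 20 members. The same share over all H3K4me3 peaks under 4 kb is not given here, so this count marks nothing particular to the members. Of the 12 tallest peaks, 4 were shorter than 500 bp. The part of peak length in these values was not tested.

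The longest members were at LINC01063 (3973 bp), at ANXA2R-OT1 with LOC100132356 and LOC100506639 (3752 bp), at SPTBN1-AS1 (3717 bp), LOC101929626 (3711 bp) and DLEU7-AS1 (3657 bp), then at KANSL1-AS1 (3582 bp), FTX (3539 bp) and CARINH (3528 bp). Just outside the limit of 4000 bp stood LINC01962 with TRIM7-AS2 (4073 bp), MBNL1-AS1 (4160 bp), LINC00977 (4188 bp), PRKCH-AS1 (4253 bp) and CHASERR (4284 bp), a regulator of its neighbour CHD2. Their pileups, from 10.2 to 22.8, lay within the range of the longest members and beyond it for LINC00977 on chromosome 8. In the same place class 26 peaks were of 4 kb or more. H3K4me1 covered the most bases at CNIH3-AS2 (3010 bp), at LINC01978 with LINC01979 (3001 bp), LOC124900931 (2597 bp), LOC124903738 in GSE1 (2580 bp), LOC124901085 (2189 bp), LOC124902040 in PLEC (2155 bp), DLEU7-AS1 (1912 of 3657 bp) and PTCSC1 inside SLA and TG (1816 bp).

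The nearest protein-coding end was a median of 16770 bp away (quartiles 5635 and 45907), and 73 members were at least 100 kb from one. The farthest were at LINC00662 with LINC02987 (1410444 bp), LOC124903399 (1313549 bp), LINC01550, LINC02100 (724809 bp), LINC02595 (595492 bp), LOC107985433 (523122 bp), LOC100287010 (474062 bp) and GLIDR (447455 bp). Their pileups ran from 5.83 at LINC02595 to 26.0 at LINC01550, with 22.7 over 2986 bp at LINC00662. At the other edge, LINC00324 lay 1012 bp from CTC1, LOC729683 1018 bp from LIMD2, C9orf163 1025 bp from SEC16A, SNHG29 1041 bp from LRRC75A, and LOC105379321 with LOC107986926 1071 bp from EGR3. In all, 50 members were under 2 kb from a protein-coding end. Another H3K4me3 peak lay within 1 kb of 3 members and within 5 kb of 66, and these shares over all H3K4me3 peaks are not given here. The median gap to the nearest other H3K4me3 peak was 37477 bp, against 35607 bp over all H3K4me3 peaks under 4 kb. The counts thus mark nothing particular to the members.

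No lncRNA gene had 3 or more member peaks, and 8 had a pair, 1 near each end: LOC124901033, HCG27, LINC02848, LINC02361, LINC01585, LINC03146, LINC00910 and LOC105372236. At HCG27, in the major histocompatibility region, the peaks were 1625 and 270 bp long with pileups of 25.8 and 20.6. At LINC02848 they were 1272 and 2079 bp with 11.4 and 20.1, and at LINC00910 911 and 1514 bp with 10.9 and 12.3. Ends of microRNA genes lay within 1 kb of 12 members (1.92%), ends of snoRNA genes of 11 (1.76%), of tRNA genes of 11 (1.76%) and of transcribed pseudogenes of 37 (5.92%). The same shares over all H3K4me3 peaks are not given here, so these counts mark nothing particular to the members.

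Among autosomes, the members' share of the H3K4me3 peaks under 4 kb ran from 2.89% on chromosome 11 (16 of 554) and 4.23% on chromosome 16 (21 of 497) to 8.39% on chromosome 20 (25 of 298) and 10.0% on chromosome 21 (12 of 120). On the X it was 5.56% (20 of 360), and on the Y 3 of 14 peaks were members. The largest number was on chromosome 1, with 59 of 1071.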

How the data were processed

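Peaks of H3K4me3 and H3K4me1 in 1 library each, and an input library, were grouped by sample titles. The authors called peaks with MACS 2.1.0.20150731 in broad mode against the input, with q limits of 0.05 and 0.1 and 1 tag kept per position, per the file headers. The deposited tables give the pileup, a coverage signal, the fold over local background, a ratio, and the −log10 of p and q, each a mean over the peak, per the file headers. The build was GRCh38, per the submitters' processing notes, and alignment paths name STAR, per the file headers, with settings not given in the sources used here.

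Tables were read with Python 3.11.15 and pandas 2.3.3, with positions counted from 1. RefSeq GRCh38.p14 gave 20037 protein-coding and 18303 lncRNA gene spans on chromosomes 1 to 22, X and Y, and the RefSeq promoter table gave strand and starts. Overlap was counted from 1 bp. Flanks were 2 kb. CpG ratio is the CpG number times 300 over the product of C and G numbers. Intervals came from scipy 1.17.1. The interval code was tested on simulated data. Members and gene lists were chosen with earlier results of these data known. TUG1, TINCR, ITPKB-AS1 and TRAF3IP2-AS1 were not matched to a lncRNA gene. Named were the 12 members of highest pileup, the 8 each of highest fold, length, distance from a protein-coding end and H3K4me1 bases, the 5 nearest each border, genes with several peaks and listed genes. Alternatives changed the window, q limits, length limit, flank, overlap rule and genes used.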

Additional observations from a re-analysis of the deposited data

How the results depend on the processing

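Of 86 values recomputed under other settings, 72 stayed within the interval of the reported value, or within 1.5 times for counts, and 14 moved. Of the 14, 6 moved with the H3K4me1 list, overlap rule or flank. With H3K4me1 peaks limited to −log10 q values from 3 upward, 20.2% of members overlapped H3K4me1, 15.7% had both flanks and 8.16% had it over the midpoint, and at protein-coding ends only the values were 17.6%, 16.0% and 2.87%. With at least 50% of the peak covered the overlap was 21.1% (protein-coding 6.83%), and with a gap of 1 kb allowed it was 83.2% (87.2%), so the order of these classes turned there and for both flanks at the stricter q. Flanks of 1 kb gave 56.8% with both. Members whose own −log10 q was 5 or more had a median pileup of 15.6 and fold of 5.24. With named lncRNA genes only there were 349 members and 365 genes, since fewer genes entered. Without members near a protein-coding start, an alternative chosen after seeing the data, the median length was 1044 bp, 25.6% of midpoints were inside H3K4me1, 24.3% lay in a protein-coding gene span and 65.7% at a 5′ end. The last 2 values follow in part from what was left out. Windows of 500 bp and 2 kb, no length limit, and 2 more alternatives chosen after seeing the data (5′ ends only, and without chromosome 8) moved none of the values computed. No paired analysis was possible because each mark had 1 library and no result came from a test between groups. No second H3K4me1 library was at hand to check the weaker peaks, and the part of depth was not tested.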
